A study of Mus musculus with 8 samples.

Results

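The apolipoproteins of the liver and the proteins that load them with lipid were examined in the livers of mice that lack Usp39 in hepatocytes. The 10 genes were chosen by symbol: Apoa1, Apoa2, Apoa4, Apoa5, Apob, Apoc1, Apoc3, Apoe, Mttp and Tm6sf2, out of 55385 genes in the deposited table, and all 10 had reads in every liver. Liver RNA was sequenced from 4 control mice (A468, A472, A473 and A475, taken as replicates 1 to 4) and 4 Usp39-HKO mice (A469, A470, A471 and A474, likewise 1 to 4), with 1 library per mouse. All were male littermates on a C57BL/6J background, 5 weeks old and fasted for 16 h. In Usp39-HKO mice both Usp39 alleles carry loxP sites around an early exon and are cut by Cre under the Albumin promoter, which is active in hepatocytes. Liver cells that never expressed this Cre keep the gene. The labels call the control mice WT, and whether they carried loxP sites is not given in the sources used here. Usp39 is a component of the spliceosome, the machinery that removes introns, and the comparison asks how its loss from hepatocytes alters the liver transcriptome.

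Very low density lipoprotein (VLDL) carries triglyceride from the liver to other tissues. Its scaffold is apolipoprotein B, which is lipidated in the endoplasmic reticulum by the microsomal triglyceride transfer protein, the product of Mttp, and enlarged with the help of Tm6sf2. Particles are then exported to the Golgi in large COPII carriers and pick up exchangeable apolipoproteins that steer their lipolysis and uptake, while Apoa1 and Apoa2 form the protein shell of high density lipoprotein (HDL).

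Of the 10 genes, 3 were lower in Usp39-HKO livers, namely Apob, Apoa2 and Mttp, none was higher, and 7 did not pass the threshold (edgeR quasi-likelihood test on counts with TMM scaling between libraries, Benjamini-Hochberg adjusted p under 0.05). Among all 14340 genes tested, 22.5% passed that threshold, 11.6% as lower and 10.9% as higher in Usp39-HKO livers, and the count of 3 among 10 is to be read beside those shares. All 10 fitted log2 fold changes were below 0, with a median of -0.25 and a range from -0.60 to -0.05, whereas 50.1% of all tested genes lay below 0. The log2 fold changes of all 8 hepatocyte markers described below were also below 0, with a median of -0.46. These directions depended on the scaling. With total counts in place of TMM the median of all genes rose from -0.0015 to 0.23, 29.4% of genes passed the threshold and 83.3% of those were higher in Usp39-HKO livers, against 48.4% under TMM. On that scale 7 of the 10 genes were below 0, their median was -0.03 and none passed. In both scalings the median of the 10 genes lay below that of all genes.

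**Figure D1:**
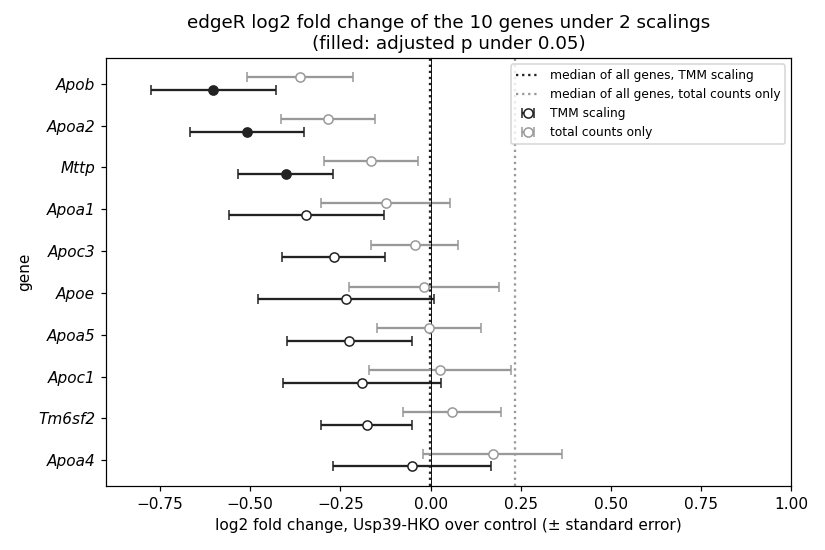
Fitted log2 fold change of each of the 10 genes (horizontal axis, Usp39-HKO over control, ± standard error, 4 livers per genotype) with TMM scaling (black) and with total counts only (grey), filled where the adjusted p was under 0.05. The dotted lines are the medians of all genes tested, -0.0015 and 0.23, and the points of every gene move to the right with total counts only, where no point is filled.

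The libraries held 8589636 to 10418450 counts each. TMM factors were 0.912 to 0.94 in controls but 1.01 to 1.19 in the knockouts. The targeted gene Usp39 itself had an FPKM (counts scaled to exon length and library total) of 8.76 to 10.4 in controls against 8.07 to 8.70 in Usp39-HKO livers, a log2 fold change of -0.41 ± 0.11 (SE, adjusted p = 0.0212). That count covers the whole gene, most of which the deletion leaves in place, and cells that do not express Albumin-Cre. Here and below, log2 fold changes are fitted with TMM factors unless stated, whereas FPKM carries none, so that the 2 differ in size. Of 8 hepatocyte markers 4 were lower and none higher (median log2 fold change -0.46), and their summed FPKM was 15535 to 16839 in controls against 13798 to 18215 in Usp39-HKO livers. Markers of stellate cells (5 of 6 higher, summed FPKM 59.2 to 68.5 against 101 to 221), macrophages (4 of 6 higher, 185 to 251 against 318 to 418) and cholangiocytes (3 of 3 tested higher, 3.20 to 3.72 against 4.45 to 22.7) rose. Of 5 endothelial markers 1 was lower (75.9 to 87.2 against 84.9 to 98.2), and of 3 tested leukocyte markers 1 was higher (8.37 to 22.1 against 7.86 to 35.7). These calls also moved with the scaling. With total counts only, 1 of 8 hepatocyte markers was lower and none higher (median log2 fold change -0.23). On that scale 6 of 6 stellate cell, 6 of 6 macrophage and 3 of 3 tested cholangiocyte markers were higher. Of the endothelial markers 2 were then higher and none lower, and 1 leukocyte marker was higher. The part of these shifts in the values below was not tested, and in whole liver fewer hepatocytes and less RNA per hepatocyte cannot be told apart. Control A475 carried RNA of pancreas genes, with a summed FPKM of 515 over 6 acinar genes against 2.45 to 4.72 in the other 7 livers. Some of the 10 genes, among them Apoa4, Apob and Mttp, are also genes of the intestine. Of 6 enterocyte markers, with a summed FPKM of 94.3 to 129 in the controls and 72.9 to 160 in the knockouts, Sis and Alpi had no count in any liver, Lct at most 3, Cdh17 at most 4 and Vil1 1 to 25, while Fabp2, which hepatocytes may also express, had 683 to 1570.

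RefSeq promoter windows of the 3 genes that were lower are shown, 1 per gene, from 250 bases before to 50 bases after the annotated start (RefSeq, GRCm38.p6, gene strand). For Apoa2 it is the window at the GENCODE start. They are printed to show the letters around the starts of the genes that differed. Capitals mark the letters TATAAA (letters of a TATA box) and TGTTTAC or TGTTTGC (letters that forkhead factors such as Foxa1 to Foxa3 can bind). Each was searched on both strands and at any position in the window, so a marked TATAAA need not be a TATA box.
Apob, chr12:7977427-7977726, plus strand: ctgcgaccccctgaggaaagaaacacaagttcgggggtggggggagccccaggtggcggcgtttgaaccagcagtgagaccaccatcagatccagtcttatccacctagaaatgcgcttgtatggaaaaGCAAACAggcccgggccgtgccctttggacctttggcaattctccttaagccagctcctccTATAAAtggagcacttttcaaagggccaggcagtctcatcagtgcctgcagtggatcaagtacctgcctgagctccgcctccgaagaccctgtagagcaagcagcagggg
Apoa2, chr1:171224804-171225103, plus strand: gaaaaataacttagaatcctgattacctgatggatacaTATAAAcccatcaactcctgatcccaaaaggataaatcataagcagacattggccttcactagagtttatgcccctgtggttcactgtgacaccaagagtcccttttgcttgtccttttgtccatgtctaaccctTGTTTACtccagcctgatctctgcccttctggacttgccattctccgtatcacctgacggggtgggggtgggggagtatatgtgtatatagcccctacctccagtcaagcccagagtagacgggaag
Mttp, chr3:138143369-138143668, minus strand: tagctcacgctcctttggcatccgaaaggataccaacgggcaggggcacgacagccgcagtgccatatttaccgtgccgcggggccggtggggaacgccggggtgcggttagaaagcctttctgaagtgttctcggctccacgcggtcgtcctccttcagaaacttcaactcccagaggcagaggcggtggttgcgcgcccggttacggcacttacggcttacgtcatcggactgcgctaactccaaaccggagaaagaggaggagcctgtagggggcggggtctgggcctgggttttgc
In Apob the TATA letters began 60 bases and the forkhead letters, on the opposite strand, 121 bases before the start. In the Apoa2 window shown they began 212 and 77 bases before it. A further Apoa2 window, whose start lies 3490 bases upstream of the GENCODE start, held neither word and is not shown. The Mttp window held neither, and its RefSeq start lies 1550 bases inside the gene's upstream end in GENCODE. A TATAAA was found in 13.6% and a forkhead word in 8.48% of all 32851 promoter windows. Of the 10 genes 7 had a window, 11 windows in all, of which 5 held TATAAA (in Apoa2, Apoa5, Apob and Apoe) and 6 a forkhead word (in the same genes and Apoa1). The windows of a gene can overlap, as those of Apoa5 do. For Apoe the window at the GENCODE start held neither word, and the matches lay in windows whose starts are 567 and 790 bases inside the gene. Such a match is only a description of the letters.

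A further sequence comes from the Apob mRNA, whose coding region holds a glutamine codon that the editing enzyme Apobec1 can turn into a stop by a C-to-U change, giving a shorter apolipoprotein B. The codon is number 2179 of transcript Apob-202, in exon 26 of 29, at chr12:8008054-8008056 (GRCm38), and is in capitals with its flanks, plus strand.
Apob editing site: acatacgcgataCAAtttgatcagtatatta

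Apob (ENSMUSG00000020609, chr12:7977648-8016835, plus strand, GENCODE on GRCm38) encodes the structural protein of VLDL. Its FPKM was 1022 in A468, 757 in A472, 857 in A473 and 821 in A475 among controls, and 578 in A469, 808 in A470, 605 in A471 and 697 in A474 among Usp39-HKO livers. Thus 3 of the 4 Usp39-HKO livers were below every control and A470 was above control A472. In TMM-scaled CPM (counts scaled to the library total and TMM factor but not to length), the scale of the test, Apob stood at 15606, 11436, 13083 and 12161 in the controls and at 7962, 10383, 7920.0 and 8193 in the Usp39-HKO livers, in the same order, and the groups did not overlap. The mean FPKM was 864 ± 113 (SD, n = 4) against 672 ± 104, and the fitted log2 fold change was -0.60 ± 0.17 (SE, edgeR adjusted p = 0.0281), so that it fell by 34.1%. Total counts alone gave -0.36 (adjusted p = 0.081). Apob took the most reads of the 10 genes, 78319 to 130695 per liver. When single livers were left out the adjusted p was 0.0216 to 0.103, above 0.05 without A468, A473, A475 or A471. Without A475, the liver with pancreas RNA, the log2 fold change was -0.63 (adjusted p = 0.0612).

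Mttp (ENSMUSG00000028158, chr3:138089854-138144968, minus strand) encodes the transfer protein that loads nascent apolipoprotein B with triglyceride. Its FPKM was 108, 115, 102 and 93.7 in A468, A472, A473 and A475, and 78.6, 113, 89.2 and 93.4 in A469, A470, A471 and A474. The fall rested on a narrow margin, since A470 lay within the control range and A474 just under the lowest control. In TMM-scaled CPM the values were 738, 774, 697 and 619 in the controls and 482, 649, 521 and 489 in the Usp39-HKO livers, so that A470 was again the one inside. Means were 105 ± 9.07 and 93.7 ± 14.6 FPKM (SD, n = 4), and the fitted log2 fold change was -0.40 ± 0.13 (SE, edgeR adjusted p = 0.0489), so that it fell by 24.3%. With total counts only it was -0.16 (adjusted p = 0.363), and with limma on log2(FPKM + 1) -0.17 (adjusted p = 0.324). The adjusted p rose to 0.0585 or more when any one liver other than A470 was left out, and was 0.0184 without A470. Of its exon bases 9.49% overlap genes on the other strand, Trmt10a with 49 to 65 counts and Gm43691 with 0 to 12, against 4738 to 7177 for Mttp.

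Tm6sf2 (ENSMUSG00000036151, chr8:70072924-70080066, plus strand) encodes a membrane protein of the endoplasmic reticulum that promotes lipidation of VLDL. It was the least abundant of the 10 genes, with an FPKM of 17.5, 24.1, 18.7 and 19.5 in A468, A472, A473 and A475 and of 21.7, 20.3, 17.4 and 23.8 in A469, A470, A471 and A474. The genotypes overlapped throughout, and the mean FPKM was 19.9 ± 2.89 against 20.8 ± 2.69 (SD, n = 4). The fitted log2 fold change was -0.18 ± 0.13 (SE, edgeR adjusted p = 0.347), and it was 0.06 with total counts only.

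The FPKM ratio of Mttp to Apob was 0.123 ± 0.0201 (SD, n = 4, range 0.106 to 0.152) in controls and 0.139 ± 0.00605 (range 0.134 to 0.148) in Usp39-HKO livers, with overlapping groups. The FPKM ratio of Tm6sf2 to Apob was 0.0236 ± 0.00613 against 0.0314 ± 0.00548, and that of Apoa4 to Apob was 0.558 ± 0.157 against 0.804 ± 0.195, both also overlapping. These ratios are given as a description, without a test.

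Apoa2 (ENSMUSG00000005681, chr1:171225054-171226379, plus strand) encodes the second protein of HDL. Its FPKM was 2457, 2798, 2403 and 2303 in A468, A472, A473 and A475, and 2361, 1823, 2237 and 1760.5 in A469, A470, A471 and A474. Here A469 was the one Usp39-HKO liver above the lowest control. In TMM-scaled CPM the controls stood at 1447, 1628, 1414 and 1315 and the Usp39-HKO livers at 1252, 902, 1129 and 797, without overlap. The mean FPKM was 2490.3 ± 215 against 2045 ± 298 (SD, n = 4). On the TMM scale the fitted log2 fold change was -0.51 ± 0.16 (SE, edgeR adjusted p = 0.0397), a fall of 29.7%. Total counts alone gave -0.28 (adjusted p = 0.118). The adjusted p was 0.0545 to 0.0891 when any one liver other than A469 was left out and 0.0144 without A469.

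Apoa1 (ENSMUSG00000032083, chr9:46228580-46230466, plus strand), the main protein of HDL and an activator of Lcat, was the most abundant of the 10 genes and ranked 6 among all genes by mean FPKM. Its FPKM was 2796, 3722, 2816 and 2839 in A468, A472, A473 and A475 and 3394, 2139.7, 3408 and 2224 in A469, A470, A471 and A474. The Usp39-HKO livers fell into a high and a low pair, on both sides of 3 of the controls. The means were 3043 ± 453 and 2791 ± 705 (SD, n = 4), and the fitted log2 fold change of -0.34 ± 0.21 (SE, edgeR adjusted p = 0.281) did not pass. Apoa2 made up 21.9% ± 1.03 (SD, n = 4) of the summed FPKM of the 10 genes in controls and 19.5% ± 0.956 in Usp39-HKO livers. The groups did not overlap, but narrowly, with ranges of 20.8% to 23.0% and 18.4% to 20.7%. As a share of the counts of the 10 genes Apoa2 did overlap, at 4.83% to 5.37% against 4.26% to 5.20%. Apoa1 made up 26.6% ± 0.722 and 26.2% ± 2.21 of the summed FPKM.

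Apoe (ENSMUSG00000002985, chr7:19696109-19699188, minus strand), the ligand through which remnant particles are taken up by the liver, had an FPKM of 1984, 2990.4, 2019.5 and 2133 in A468, A472, A473 and A475. In A469, A470, A471 and A474 it was 2863, 1750.5, 2764 and 1629, which is the same split into a high and a low pair as for Apoa1. The means of 2282 ± 477 and 2252 ± 652 (SD, n = 4) nearly coincided, and the log2 fold change was -0.23 ± 0.24 (SE, edgeR adjusted p = 0.534).

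Apoc1 (ENSMUSG00000040564, chr7:19689481-19692660, minus strand), which lies beside Apoe and whose product inhibits uptake of lipoproteins, had an FPKM of 611, 1038, 686 and 899.8 in A468, A472, A473 and A475 and of 934, 721, 1033 and 608 in A469, A470, A471 and A474. Neither genotype stood apart, with means of 809 ± 196 and 824 ± 194 (SD, n = 4) and a log2 fold change of -0.19 ± 0.22 (SE, edgeR adjusted p = 0.577). With total counts only its value was 0.03.

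Apoc3 (ENSMUSG00000032081, chr9:46232933-46235636, minus strand), an inhibitor of lipoprotein lipase and of remnant uptake, had an FPKM of 713, 849, 795 and 818 in A468, A472, A473 and A475 and of 828, 745, 857 and 650.4 in A469, A470, A471 and A474. The groups overlapped, at 794 ± 58.3 and 770.0 ± 92.8 (SD, n = 4), and the log2 fold change was -0.27 ± 0.14 (SE, edgeR adjusted p = 0.206).

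Apoa5 (ENSMUSG00000032079, chr9:46268633-46271919, plus strand), whose product favours lipolysis by lipoprotein lipase, had an FPKM of 504, 577, 514 and 579.7 in A468, A472, A473 and A475 and of 664, 442, 597 and 464 in A469, A470, A471 and A474. The Usp39-HKO livers lay on both sides of the controls, with means of 544 ± 40.3 and 542 ± 106 (SD, n = 4) and a log2 fold change of -0.23 ± 0.17 (SE, edgeR adjusted p = 0.385). Of its exon bases 20.8% overlap Gm47544 on the other strand, which had no count in any liver.

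Apoa4 (ENSMUSG00000032080, chr9:46240696-46243459, plus strand), an apolipoprotein of chylomicrons and large VLDL, had an FPKM of 486, 591, 469.01 and 350.4 in A468, A472, A473 and A475 and of 546, 671, 556 and 363 in A469, A470, A471 and A474. The lowest liver of each genotype stood at 350.4 and 363, and the means of 474.1 ± 98.6 and 534 ± 127 (SD, n = 4) differed by less than the SD of either group. The log2 fold change of -0.05 ± 0.22 (SE, edgeR adjusted p = 0.895) was the one nearest to 0 and was 0.17 with total counts only. Of its exon bases 69.8% overlap the antisense genes Gm47528 and Gm10680, and the strand setting of the counting is not given in the sources used here. Gm47528 had 33 to 207 counts and Gm10680 none, against 6252 to 12414 for Apoa4.

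**Figure D2:**
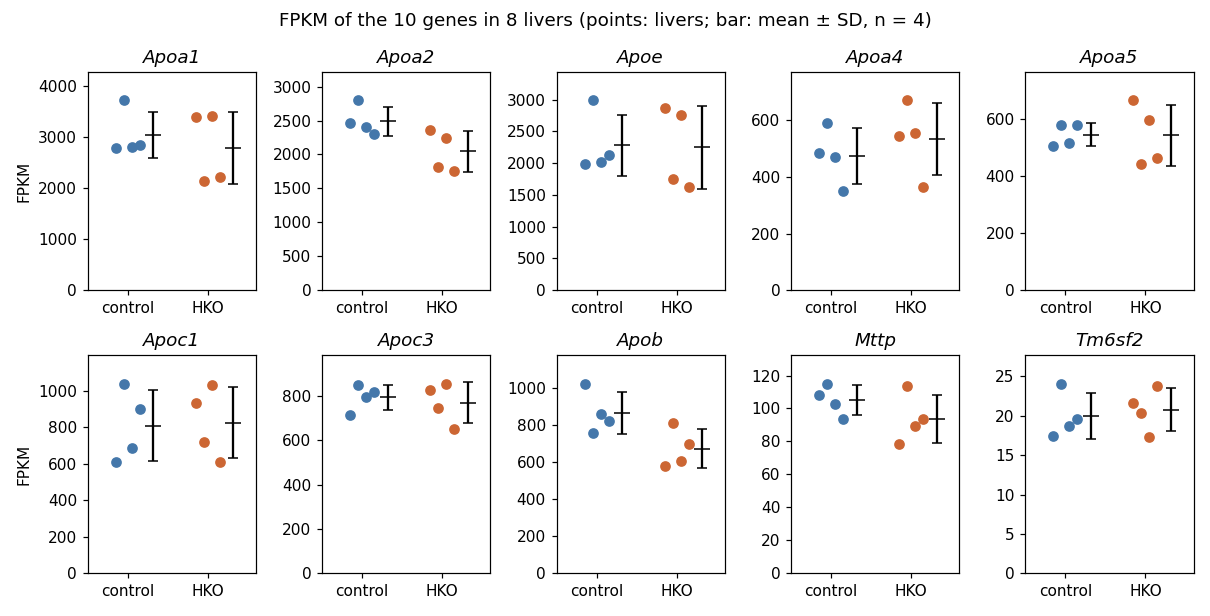
FPKM of each of the 10 genes (vertical axes, from 0) in the 4 control and 4 Usp39-HKO livers (points), with mean ± SD beside them. Most Usp39-HKO points for Apob and Apoa2 lie under the controls, while for Apoa1 and Apoe they split into a high and a low pair.

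By mean FPKM over the 8 livers the order was Apoa1, Apoa2, Apoe, Apoc1, Apoc3, Apob, Apoa5, Apoa4, Mttp and Tm6sf2. Apoa1 exceeded Apoa2, Apoe exceeded Apoc1, Apoa4 exceeded Mttp and Mttp exceeded Tm6sf2 in 8 of 8 livers. The neighbours Apoa2 and Apoe (5 of 8 livers in this order), Apoc1 and Apoc3 (4 of 8) and Apoc3 and Apob (3 of 8) did not differ beyond their spread. Together the 10 genes took 2.63% ± 0.151 of all counts (SD, n = 4, range 2.50% to 2.80%) in controls and 2.31% ± 0.187 (range 2.05% to 2.45%) in Usp39-HKO livers, without overlap. Apob, the longest of them, supplied 45.8% ± 6.01 of these counts in controls and 41.0% ± 8.41 in Usp39-HKO livers. Per length, their share of all FPKM was 3.41% ± 0.367 and 3.17% ± 0.469, and here the groups overlapped.

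How far single livers separate the groups also differed between scales. In TMM-scaled CPM 2 of the 10 genes, Apob and Apoa2, were lower in all Usp39-HKO livers than in all controls, as were 12.9% of all tested genes. In FPKM as deposited this held for 0 of the 10 genes and for 4.81% of all tested genes.

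The order of the livers differed between short and long genes. Among Usp39-HKO livers A469 and A471 were both above A470 and A474 for 6 genes, Apoa1, Apoa2, Apoa5, Apoc1, Apoc3 and Apoe, with 537 to 2522 exon bases. For the 2 longest, Mttp with 6206 and Apob with 13934 exon bases, both were below A470 and A474. Apoa4 and Tm6sf2, with 1815 and 1901 exon bases, showed neither order. Among controls A472 was the highest liver for 8 of the 10 genes and the lowest for Apob. Over 223 genes with under 1000 exon bases and a TMM-scaled CPM of at least 10, the median log2 deviation from the mean of the 8 livers was 0.16 in A472, 0.13 in A469 and 0.17 in A471, against -0.15 in A470, -0.17 in A474 and -0.07 to 0.02 in the other 3 controls. Over 4252 genes with more than 5000 exon bases it was between -0.07 and 0.08. When each liver was given an offset that follows exon length, a setting chosen after seeing these values, Apob (log2 fold change -0.51, edgeR adjusted p = 0.0272) and Apoa2 (-0.50, adjusted p = 0.0105) passed and Mttp (-0.35, adjusted p = 0.0654) did not.

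**Figure D3:**
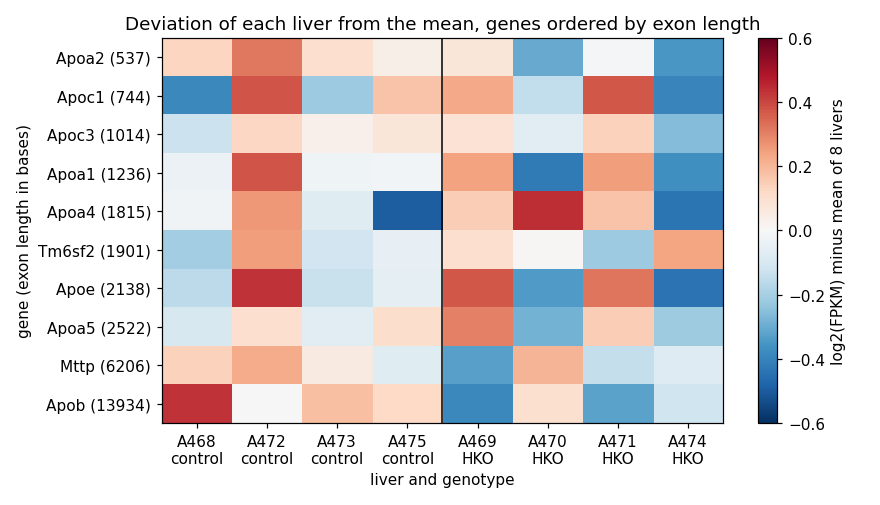
Log2 FPKM of each gene in each liver minus its mean over the 8 livers (colour), with the livers in columns by genotype and the genes in rows by exon length. In the columns of A469 and A471 the 2 longest genes are blue and most shorter genes red.

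Of the 10 genes, 6 lie in 2 clusters. Apoa1, Apoc3, Apoa4 and Apoa5 occupy 43340 bases of chromosome 9, and none of them passed the threshold, nor did the genes on either side, Sik3 (-0.17, adjusted p = 0.227) and Zpr1 (-0.28, adjusted p = 0.237). Apoc1 and Apoe occupy 9708 bases of chromosome 7, where the flanking Apoc4 (-0.31, adjusted p = 0.364) and Tomm40 (0.32, adjusted p = 0.15) did not pass either. Around Apoa2 the neighbours differed in direction: Tomm40l, which encodes a protein of the outer mitochondrial membrane, was lower (log2 fold change -1.01 ± 0.23, SE, edgeR adjusted p = 0.0101), and Fcer1g, an Fc receptor subunit of myeloid cells, was higher (0.73 ± 0.14, adjusted p = 0.00422). Ldah, 191271 bases from Apob (-0.29, adjusted p = 0.183), and Sugp1 and Hapln4 beside Tm6sf2 (adjusted p = 0.567 and 0.616) did not pass. Klhl29, 2601965 bases from Apob, and both neighbours of Mttp, 1110002E22Rik and 4930579F01Rik, were too low to be tested.

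Among 13 other apolipoprotein genes 11 were expressed enough to be tested, of which 4 were lower, none higher and 7 not past the threshold, with a median log2 fold change of -0.31. With TMM the shares over all tested genes, 11.6% lower and 10.9% higher, are the background for this and the following lists. With total counts only, 702 of the 14340 genes were lower and 3509 higher, and list counts on that scale are to be read beside these. Under scaling by total counts 3 were lower and none higher. Apol9b (-1.04 ± 0.24, SE, edgeR adjusted p = 0.0108) had a mean FPKM of 25.2 ± 3.35 in controls and 14.3 ± 4.73 in Usp39-HKO livers, but shares long stretches of sequence with Apol9a, so its reads are uncertain. Apon (-0.84 ± 0.22, adjusted p = 0.0202) was at 329 ± 40.8 against 214 ± 64.9 FPKM, and Apol7a (-0.75 ± 0.23, adjusted p = 0.0384) at 24.4 ± 7.74 against 17.3 ± 4.13. Apoh, a phospholipid-binding plasma glycoprotein named here after its values were seen, had a mean FPKM of 909.7 ± 47.6 against 676 ± 112 (-0.65 ± 0.16, adjusted p = 0.0138), and the FPKM of each of the 4 Usp39-HKO livers was below every control. Apol9b and Apoh passed in all 16 alternative settings, Apon in 12 and Apol7a in 5. With 1 liver left out, the adjusted p of Apon reached 0.06 (above 0.05 without A473 or A475) and that of Apol7a 0.11 (below 0.05 only without A470 or A472).

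Of 23 genes for VLDL lipidation and export from the endoplasmic reticulum, 7 were lower, 1 was higher and 15 did not pass, with a median log2 fold change of -0.09. With total counts only 3 were lower and 1 higher, and the median was 0.15 against 0.23 for all genes. Mia3, also known as Tango1, a cargo receptor of large COPII carriers, was at 40.2 ± 3.45 FPKM (SD, n = 4) in controls against 25.2 ± 3.03 in Usp39-HKO livers, with ranges of 35.0 to 42.3 and 22.5 to 29.3 that did not overlap (log2 fold change -0.91 ± 0.12, SE, edgeR adjusted p = 0.000838). Its partner Mia2 was at 42.6 ± 5.71 against 31.9 ± 4.40 FPKM (-0.65 ± 0.13, adjusted p = 0.00616). Dgat2, an enzyme of the last step of triglyceride synthesis, was at 116 ± 11.2 against 81.8 ± 21.7 FPKM (-0.72 ± 0.19, adjusted p = 0.0221). The one higher gene was Ces1g, a carboxylesterase, at 90.2 ± 9.46 against 159.9 ± 19.6 FPKM (0.59 ± 0.13, adjusted p = 0.00775). Mia3, Mia2 and Ces1g passed in all 16 alternative settings, and Dgat2 in 12, with an adjusted p of up to 0.0557 without A472, A473, A470 or A474. The GTPase Sar1b, which starts the COPII coat, had a log2 fold change of 0.04 ± 0.11 (adjusted p = 0.844), and P4hb, the partner subunit of the transfer protein, one of -0.14 ± 0.13 (adjusted p = 0.475). Surf4, a cargo receptor for lipoproteins, was at -0.19 ± 0.10 (adjusted p = 0.173) and Klhl12, which acts on the size of the carriers, at -0.09 ± 0.11 (adjusted p = 0.619). Of the same list, Sec16a (-0.56 ± 0.12, adjusted p = 0.0074) and Sec23b (-0.34 ± 0.11, adjusted p = 0.0407) were lower, and passed in 13 and 5 of the 16 alternative settings. With total counts only they were at -0.32 (adjusted p = 0.0702) and -0.10 (adjusted p = 0.534). Sar1b, P4hb, Surf4, Klhl12, Sec16a and Sec23b were named after their values were seen.

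Of the 3 genes for editing of the Apob codon shown above 1 was higher and 1 lower, and with total counts only 1 was higher and none lower. Apobec1, the cytidine deaminase, rose from 10.2 ± 0.984 FPKM in controls (range 9.23 to 11.1) to 20.4 ± 5.51 in Usp39-HKO livers (range 13.6 to 27.1), with a log2 fold change of 0.74 ± 0.15 (SE, edgeR adjusted p = 0.00582), and passed in all 16 alternative settings. A1cf, an RNA-binding cofactor of the deaminase, fell from 55.1 ± 3.81 to 43.0 ± 12.3 FPKM (-0.60 ± 0.16, adjusted p = 0.0222) and passed in 8 of the 16, with an adjusted p of up to 0.0673 without A468, A473, A475 or A471. Rbm47, another such cofactor, was at 10.4 ± 1.75 and 9.58 ± 1.04 FPKM (-0.35 ± 0.12, adjusted p = 0.0614). Gene counts do not show how much of the Apob mRNA was edited. Apobec1 is also expressed in myeloid cells, and macrophage markers were higher in the same livers, as given above. Their part in its rise was not tested.

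Of 20 genes for remodelling and uptake of lipoproteins, 4 were higher, 5 lower and 11 not past the threshold, with a median log2 fold change of -0.01. When total counts set the scale, 5 were higher and none lower, beside 3509 higher and 702 lower of all 14340 genes. Lpl, the lipase that hydrolyses triglyceride of circulating particles, rose from 14.5 ± 0.821 FPKM (range 13.5 to 15.4) to 35.3 ± 16.6 (range 22.9 to 58.2), a log2 fold change of 1.02 ± 0.23 (SE, edgeR adjusted p = 0.00894). Apobr, a receptor for triglyceride-rich particles on macrophages, had only 19 to 89 counts (0.85 ± 0.25, adjusted p = 0.0326), and 14.4% of its exon bases overlap genes on the other strand. Pltp, which transfers phospholipid between lipoproteins, was at 16.0 ± 2.03 against 28.3 ± 7.60 FPKM (0.57 ± 0.14, adjusted p = 0.016), with 19.3% of its exon bases under Ctsa on the other strand. Among the lower genes was Lmf1, which helps lipases fold, at 2.53 ± 0.217 against 2.13 ± 0.201 FPKM (-0.47 ± 0.13, adjusted p = 0.0224). Lpl passed in all 16 alternative settings. With 1 liver left out, Pltp was above 0.05 without A473 or A475 (adjusted p up to 0.0563), Lmf1 without A468, A473, A475 or A474 (up to 0.0662) and Apobr without A468, A473, A475, A470 or A474 (up to 0.0929). Macrophages also express Lpl and Pltp, their markers were higher in the same livers, and their part was not tested.

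Of 24 transcription factors known to act on apolipoprotein genes, 8 were lower, 1 was higher and 15 did not pass, against 11.6% lower and 10.9% higher over all tested genes, with a median log2 fold change of -0.30. Scaled by total counts, 3 were lower and 2 higher. Ppara, the receptor that switches on fasting genes, was at 68.5 ± 7.83 FPKM (SD, n = 4) in controls against 45.1 ± 5.78 in Usp39-HKO livers, a log2 fold change of -0.83 ± 0.13 (SE, edgeR adjusted p = 0.00209). Cebpa fell from 135 ± 13.1 to 98.8 ± 14.3 FPKM (-0.67 ± 0.14, adjusted p = 0.00747) and Prox1 from 32.7 ± 4.73 to 24.7 ± 2.36 FPKM (-0.64 ± 0.12, adjusted p = 0.00414). The higher factor was Nr1d1, a clock repressor, at 7.26 ± 2.36 against 31.0 ± 10.4 FPKM (1.87 ± 0.27, adjusted p = 0.00122), and 8.55% of its exon bases overlap Thra on the other strand. These 4 passed in all 16 alternative settings. Of the forkhead factors, named after their values were seen, Foxa3 was lower (-0.46 ± 0.13, adjusted p = 0.0233, up to 0.0583 without A468, A469, A471 or A474), while Foxa1 (0.18 ± 0.12, adjusted p = 0.314) and Foxa2 (-0.18 ± 0.15, adjusted p = 0.426) did not pass. Hnf4a, a principal activator of Apob, Mttp and the Apoa1 cluster, named after its values were seen, was at 158 ± 29.1 and 158 ± 13.6 FPKM (-0.23 ± 0.14, adjusted p = 0.292).

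**Figure D4:**
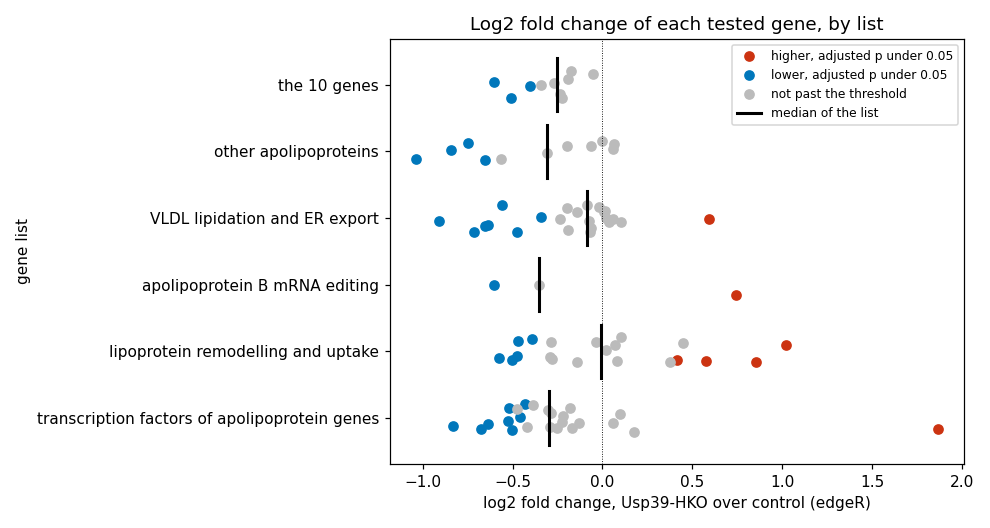
Fitted log2 fold change (horizontal axis, Usp39-HKO over control, edgeR with TMM scaling) of every tested gene of the 10 and of each list, in red where higher and blue where lower at an adjusted p under 0.05, with the median of each list as a bar. The medians run from -0.35 for the 3 editing genes to -0.01 for remodelling and uptake. For the 10 genes and for other apolipoproteins the points past the threshold all lie below 0.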

How the data were processed

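RNA of whole liver was extracted with TRIzol and sequenced as read pairs on a NovaSeq. Per the labels and the methods, the authors trimmed reads with Trim Galore 0.6.1, checked them with FastQC 0.11.9, aligned them to mm10 with HISAT2 and assigned them to genes with featureCounts. The annotation release, strand setting and treatment of multi-mapped reads are not given in the sources used here, so that reads of overlapping genes or of shared sequence may be split. Beside the overlaps given in the report, Apol7a, Lpl and Rbm47 share stretches with other genes, and Apoh, Cebpa, Prox1, Rbm47 and Surf4 overlap others over 1.56% to 4.39% of their exon bases.

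The authors deposited raw counts per gene and liver, the FPKM made from them, and the exon length of each gene as another value. Counts, length and library total give the deposited FPKM back. The deposited mean signal, log2 fold change, score columns (standard error and Wald statistic) and p-values of the authors' own DESeq2 comparison were not used. The table had 55699 entries for 55385 genes, of which 314 repeated a gene with the same values and were read once.

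Counts were compared between 4 control and 4 Usp39-HKO livers with edgeR 4.0.16 in R 4.3.3 (TMM scaling, quasi-likelihood test, genotype only, two-sided) over the 14340 genes whose FPKM reached 0.5 in 4 or more livers, and p-values were adjusted by the Benjamini-Hochberg method over all of them. The common biological coefficient of variation was 0.179. The SE given with an edgeR log2 fold change was derived from the test. It is the size of that change divided by the square root of the quasi-likelihood F statistic. The script was tested on simulated counts. Totals ran from 8589636 to 10418450 counts, and 3 counts, the floor of detection, correspond to 0.288 to 0.349 CPM; floors cover counting error only. Alternatives were other scalings and filters, DESeq2 1.42.0, limma 3.58.1 on log2(FPKM + 1) and log2(FPKM + 0.1), leaving out each liver, and an offset by exon length added after the data were seen.

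The 10 genes, the lists and the markers were chosen with earlier results of these data known. Named were the 10 genes, Usp39, from each list up to 3 genes past the threshold with the largest rise and up to 3 with the largest fall, and the nearest protein-coding gene on each side of the 10; others are marked as named after their values were seen. A few results that this rule would name are not reported here. Coordinates are from GENCODE vM21, whose merged exon lengths equal those in the table for the 10 genes, and promoters from RefSeq. The editing site was found in the Apob transcript by the mooring sequence that follows the codon. Mice carry distinct numbers in the labels, and which of them shared a litter is not given in the sources used here. No livers were therefore paired, and litter was not in the model. The labels name no batch.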

Additional observations from a re-analysis of the deposited data

Results flagged for a closer look

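In 2 of the 22 groups of 4 livers examined, 1 liver stood apart from the other 3 by more than Dixon's 95% critical value for the gap over the range allows; chance flags about 1 in 20 groups. Both are control A472. Its Apoa1 FPKM was 3722 against 2796 to 2839 in the other controls, with a gap over range of 0.954. Its Apoe FPKM was 2990 against 1984 to 2133, with a gap over range of 0.852. Without A472 the log2 fold change of Apoa1 was -0.23 (edgeR adjusted p = 0.4997) and that of Apoe was -0.08 (adjusted p = 0.855), so neither passed with or without it. A472 was also the control with the highest median deviation of genes under 1000 exon bases, 0.16 on the log2 scale, and the part of this in its Apoa1 and Apoe values was not tested.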

How the results depend on the processing

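The calls of the 10 genes lie close to the threshold and change with the scaling and with single livers. Of the 10 genes 3 passed, 2 with median-ratio factors, 3 with DESeq2 or without a filter, 1 with a mean FPKM of at least 5, 0 with total counts only, 0 with limma on log2(FPKM + 1) and 0 on log2(FPKM + 0.1), and 0 to 2 when 1 liver was left out. Total counts and FPKM apply no factor between libraries, and the median of all genes was then 0.23 and 0.17. With total counts only, 7 of the 10 log2 fold changes were below 0, and 4211 of all genes passed. Apob, Apoa2 and Mttp stayed below 0 in all 16 alternatives and passed in 9, 5 and 3 of them. Apoa4 turned positive with total counts only (0.17), a mean FPKM of at least 5 (0.021), limma with either pseudocount (0.16), without control A472 (0.07), without Usp39-HKO A474 (0.12) and with offsets by exon length (0.0017), and ranged from -0.18 to 0.12 without 1 liver. Apoc1 and Tm6sf2 turned positive with total counts only (0.027 and 0.059) and with limma at a pseudocount of 1 (0.028 and 0.058) or 0.1 (0.028 and 0.061). None of these passed.

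Over all genes 3225 passed, 1595 with a mean FPKM of at least 5 (a filter that leaves fewer genes to test) and 1931 to 3510 when 1 liver was left out. Among other apolipoproteins 4 passed, 2 with limma at either pseudocount and 2 to 4 without 1 liver. Of the lipidation and export genes 8 passed, 4 with total counts only, 4 and 5 with limma at pseudocounts of 1 and 0.1, and 5 to 7 without 1 liver. Of the editing genes 2 passed, 1 with total counts only, with a mean FPKM of at least 5 and with limma at either pseudocount, and 1 to 3 without 1 liver. Of the remodelling and uptake genes 9 passed, 5 with total counts only, 2 with a mean FPKM of at least 5, 4 with limma at either pseudocount, and 2 to 9 without 1 liver. Of the transcription factors 9 passed, 5 with total counts only and with limma at either pseudocount, and 6 to 12 without 1 liver. The cause of these changes was not tested. Every list gene past the threshold kept its direction in each alternative that tested it. The difference in the share of counts, -0.33 percentage points, was -0.37 to -0.24 without 1 liver. No paired analysis was made, because which mice shared a litter is not given in the sources used here. With 4 livers per genotype, the standard errors of the 10 genes were 0.13 to 0.24. Log2 fold changes larger than these errors also failed to pass, such as Apoa1 at -0.34 (edgeR adjusted p = 0.281) and Apoc3 at -0.27 (adjusted p = 0.206). The smallest that passed was Mttp at -0.40 (adjusted p = 0.0489). A gene not past the threshold is therefore not shown to be unchanged.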
